A study of Homo sapiens with 2 samples.

Results

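CpGs were grouped by the base just before the C and the base just after the G, to see whether the methylation gained in dCas9+3A+HOXA5 cells depended on these flanking bases. Whole-genome bisulfite sequencing (WGBS), which reads a methylated cytosine as C and an unmethylated cytosine as T, had been run on 2 libraries of HEK293T, a human embryonic kidney cell line. The Neg library is the negative control, which the study describes as not transduced. The dCas9+3A+HOXA5 library came from cells transduced by lentivirus with nuclease-dead Cas9 carrying the SunTag peptide array, with DNMT3A1 fused to GFP and to the antibody fragment that binds this array, and with a guide RNA against HOXA5. Fluorescence-positive cells were sorted, grown for 30 days and sorted again, and they are a sorted population from which 1 library was made. The labels attach the same treatment text to both samples, so that only the titles separate them.

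The members were the 1273762 CpGs of chromosomes 1 to 22 that had at least 5 reads with C or T in both libraries, out of 14111071 CpGs listed in both files. They made up 4.76% of the reference CpGs of these chromosomes, and all of them lay on a CG of the reference. The choice used read number and reference sequence, not methylation. With 1 library per group there was no replicate error and no test between conditions. Each value below is therefore a mean over CpGs, and its spread is given over CpGs or over the 22 chromosomes as a description. Among the members the median was 7 reads per CpG in Neg and 6 in dCas9+3A+HOXA5.

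DNMT3A is a de novo DNA methyltransferase that sets methylation on CpGs without needing a methylated partner strand, whereas DNMT1 copies existing patterns after replication. Purified DNMT3A is known to work faster on some flanks than on others, and a pyrimidine (Y, C or T) after the CG is favoured over a purine (R, A or G). A CpG has a C on each strand. An R-CG-Y site offers a pyrimidine after the CG on both strands, a Y-CG-R site on neither strand, and the other sites on 1 strand.

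Because each file combines both strands of a CpG, the 16 possible flank groups form 10 classes. Of these, 4 read the same on both strands. The other 6 are pairs of readings, and each is called here by the reading that comes first in the alphabet, so that ACGC stands for sites read as ACGC on one strand and as GCGT on the opposite strand. R-CG-Y comprises the self-complementary class ACGT, the pair called ACGC and the self-complementary class GCGC. Y-CG-R comprises the self-complementary class CCGG, the pair called CCGA and the self-complementary class TCGA. The pairs called ACGA, those called ACGG, those called CCGC and those called GCGA have the pyrimidine on 1 strand. To show what the classes look like at the target of the guide, the member of each class nearest to the HOXA5 protospacer (chr7:27182884-27182903, plus strand, hg19) is printed here 5′ to 3′ from the plus strand, with the CG and its 2 flanking bases in capitals.
GCGC, chr7:27183678-27183707: tcagctgccgatcGCGCgcccggcgaggat
CCGG, chr7:27183684-27183713: gccgatcgcgcgcCCGGcgaggatgcagag
GCGA, chr7:27183687-27183716: gatcgcgcgcccgGCGAggatgcagaggat
ACGG, chr7:27183752-27183781: aactttatttcccCCGTtttgcagcccctc
CCGC, chr7:27181958-27181987: tctcctgccccctCCGCcctgccccgggcg
ACGA, chr7:27184493-27184522: ggccctgggccccTCGTtgggtcctgaacg
ACGC, chr7:27184507-27184536: cgttgggtcctgaACGCtgctgtggcggcg
CCGA, chr7:27184536-27184565: gacgcgggcgctaTCGGaggctgggagcgg
TCGA, chr7:27173233-27173262: tttcatcatgtccTCGAatcccagatggag
ACGT, chr7:27173156-27173185: tttgctcatttccACGTgcagggataacat

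All 10 lie within an annotated intron of HOXA3, whose longest transcripts span the locus, and the CCGC site lies in an intron of HOXA5 as well. The printed stretches of the first 3 overlap, as do those of the ACGA and ACGC sites and those of the ACGC and CCGA sites. Whether they share reads was not examined. In Neg, 7 of these CpGs had no methylated read. The GCGC site had 1 of 7 methylated reads in Neg and 2 of 9 in dCas9+3A+HOXA5. The CCGC site had 0 of 5 and 5 of 5, the CCGA site 0 of 5 and 4 of 6, and the ACGT site 0 of 6 and 2 of 6. The ACGA site had no methylated read in either library, with 6 and 8 reads. Neighbouring sites near the guide thus ranged from no gain to a full gain, and single sites at this depth do not order the classes.

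Over all members mean methylation went from 70.0% in Neg up to 74.8% in dCas9+3A+HOXA5, a gain of 4.82 percentage points (SD over CpGs 26.8). Because flanks and CpG density go together, class values were standardised over 5 bands of local density, the number of other reference CpGs within 500 bp. The gain then differed between classes by 5.87 points, and by 4.27 to 9.43 points over the alternatives of processing. The lowest of these values leaves out 436345 members with too few other covered CpGs nearby. It was highest in ACGT, which rose from 62.2% to 69.8% (7.62 points; SD over CpGs 30.3), and lowest in GCGC, which rose from 80.5% to 82.3% (1.75 points; SD over CpGs 21.4). Close to the top stood the TCGA class with a gain of 7.53 points and the ACGA class with a gain of 7.46 points. The CCGA class followed with 6.16 points, the ACGG class with 6.10 points and the CCGG class with 5.87 points. Far below were the GCGA class with 3.02 points, the ACGC class with 2.99 points and the CCGC class with 1.98 points.

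The classes fell into an upper set of 6 and a lower set of 4, and the lower set was exactly the classes that have a G before the C on at least 1 strand. Such a G is a C after the CG on the opposite strand. CCGG, the lowest of the upper set, stood above GCGA, the highest of the lower set, on each of the 22 chromosomes. Within the sets some orders held on every chromosome and others did not. ACGT stood above ACGG and above CCGG on 22 of 22 chromosomes, and both GCGA and ACGC stood above CCGC and above GCGC on 22 of 22. Some neighbours in the order were not separated. ACGT stood above TCGA on 12 of 22 chromosomes, TCGA above ACGA on 11, and GCGA above ACGC on 10. CCGC stood above GCGC on 16 of 22. ACGT was the highest class on 9 chromosomes and TCGA on 7, while GCGC was the lowest on 16 and CCGC on 6.

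The same split was present in the levels of the Neg library. In Neg the upper set had levels between 56.8% (TCGA) and 66.8% (CCGG), whereas the lower set had levels between 75.1% (GCGA) and 80.5% (GCGC). The 6 classes with the lowest Neg level were thus the 6 with the highest gain. The difference between the highest and the lowest class level was 23.8 points in Neg and 17.98 points in dCas9+3A+HOXA5, so the classes lay closer together in the treated library. Gain and Neg level share the Neg measurement, and no correlation is therefore given. Sites without a G before the C on either strand, a grouping made after the class values were seen, gained 6.65 points, those with it on 1 strand 2.60 points and those with it on both strands 1.75 points.

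**Figure D1:**
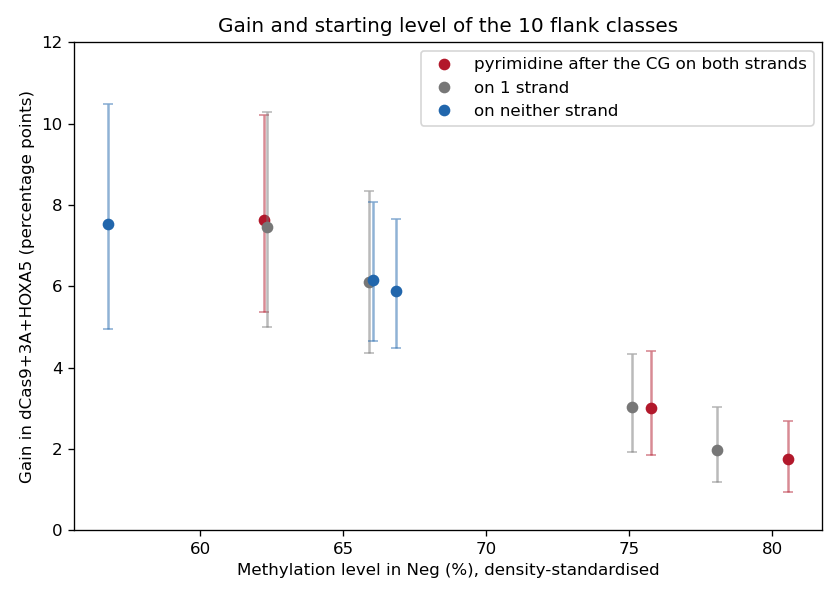
Density-standardised gain in percentage points (y axis) against the Neg methylation level in percent (x axis) for the 10 flank classes; colour gives the number of strands with a pyrimidine after the CG, and the bars are the mean ± SD of the gain over the 22 chromosomes. The 6 classes between 56.8% and 66.8% in Neg gained 5.87 to 7.62 points, and the 4 classes above 75% gained 1.75 to 3.02 points. The classes with the pyrimidine on neither strand are all among the former.

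Classes with a low starting level also have more room to gain. As a percentage of the part that was unmethylated in Neg, the gain was 20.2% for ACGT sites and 19.8% for ACGA sites. It was between 17.4% and 18.1% for the other 4 classes of the upper set. In the lower set it was 12.3% for the ACGC class, 12.1% for the GCGA class, and 9.004% for the GCGC class. The CCGC class stood at 9.005%. Over all members the classes with a G before the C thus also gained less relative to the room they had, which did not hold where neighbours were low.

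Single CpGs gave the same picture by counts. A rise of more than 20 points was found at 19.6% of all members and a fall of more than 20 points at 11.9%. Of the ACGT sites 28.0% rose and 12.1% fell by this measure, whereas of the GCGC sites 10.8% rose and 9.61% fell. In CCGC, the largest class with 219594 CpGs, 12.6% rose and 11.04% fell. Rises differed between classes more than falls did, which lay between 9.61% and 12.8%. At these depths 1 read is worth up to 20 points, so that single rises and falls rest on few reads. How many of them come from read sampling alone was not tested.

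The 6 paired classes offer an internal check, because their plus-strand and minus-strand readings are different CpGs that should gain alike when both strands are combined. The readings of a pair differed by 0.0291 to 0.29 points in gain, with a median of 0.11 points. The largest difference was between ACGG, with 6.24 points, and CCGT, with 5.95 points. These differences are small against the 5.87 points between the highest and lowest class, but of the size of the distances between neighbours such as CCGA and ACGG.

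Gain fell with local CpG density in every class. With 0 to 9 other CpGs within 500 bp, TCGA gained 14.6 points (47.5% to 62.1%), ACGT 14.2 points and GCGC 2.82 points, a span of 11.8 points. With 10 to 19 CpGs the span was 6.39 points, with 20 to 39 it was 3.71 and with 40 to 79 it was 2.54. With 80 or more other CpGs, the density of CpG islands, class gains lay between -0.394 and 0.439 points and gave no order. The mean gain over all members fell alongside, with 9.61, 5.16, 3.05, 1.47 and -0.0902 points from the sparsest to the densest band, so that the span narrowed together with the gain itself. In Neg the difference of R-CG-Y minus Y-CG-R sites was still 8.27 points in the densest band. The lowest class was GCGC or CCGC in each of the first 4 bands.

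**Figure D2:**
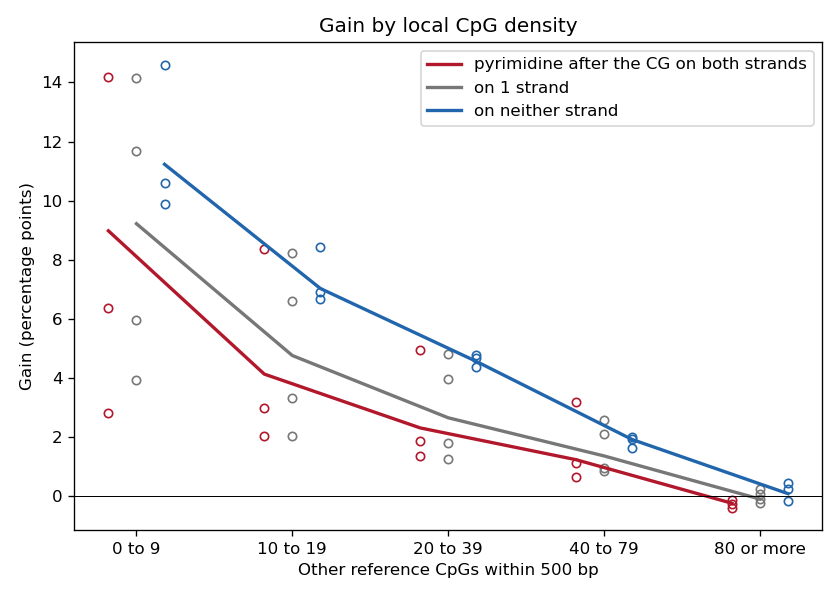
Gain in percentage points (y axis) in 5 bands of local CpG density, the number of other reference CpGs within 500 bp (x axis); each circle is a flank class, and lines join the means of the groups with a pyrimidine after the CG on both strands, on 1 strand or on neither. The span between classes narrows from 11.8 points in the sparsest band to 0.833 points in the densest.

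To take out differences between loci, each CpG was set against the other covered CpGs of its own 1-kb tile, which was possible for 1040360 members. In Neg, the deviation of ACGT sites from their neighbours was -8.09 points and that of TCGA sites -8.55 points. GCGC sites lay 6.84 points above their neighbours and CCGC sites 6.13 points above. In dCas9+3A+HOXA5 these deviations were smaller, with -5.19 points for ACGT sites and -6.13 points for TCGA sites. The corresponding values were 4.84 points for GCGC sites and 4.17 points for CCGC sites. The gain of ACGT sites minus that of their own neighbours was thus 2.903 points and that of GCGC sites -2.0004 points. All 6 classes without a G before the C gained more than their neighbours, by 1.28 to 2.903 points, and the other 4 classes differed by -2.0004 to -1.56 points. The order of classes was hence also seen between sites of the same tile.

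The bases at greater distance served as a background for base composition. Both strands were read, so that a base before the C on 1 strand is also its complement after the G on the other, and the files cannot separate these readings. Just before the C the gain was 5.98 points with T, 5.97 with A, 4.99 with C and 2.43 with G, which is a span of 3.55 points. For summed reads this span was 6.98 points, and 3.91 points without CpGs over 50 reads. At the second base it was 5.96 points with C, 5.25 with A, 3.93 with G and 3.52 with T, a span of 2.44 points. From the third to the 10th base the span stood between 0.536 and 0.94 points. With the own tile taken out, the span was 2.86 points at the first base, 2.13 at the second and between 0.270 and 0.822 beyond. The difference in gain was thus larger at the 2 bases next to the CG than at any of the 8 bases farther out. The Neg level had the same profile. Its span was 11.7 points at the first base, 5.59 at the second and between 1.42 and 3.00 beyond.

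**Figure D3:**
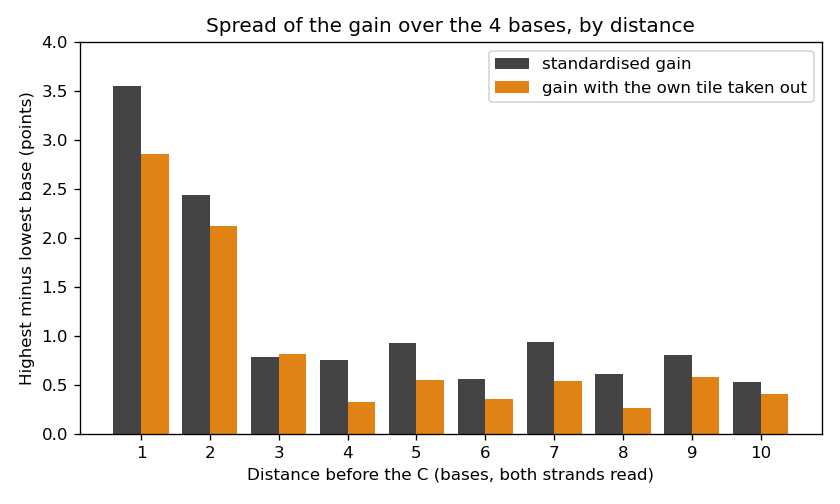
Highest minus lowest gain over the 4 bases, in percentage points (y axis), at each distance of 1 to 10 bases before the C with both strands read (x axis); dark bars are density-standardised and orange bars have the own 1-kb tile taken out. The dark bars reach 3.55 and 2.44 points at the first and second base and stay below 1 point beyond.

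With 2 bases on each side, the flanks form 136 contexts once both strand readings are pooled, and each of them had at least 1000 members. The highest gain was found in the context AACGTT, whose 3309 CpGs rose from 39.8% to 50.8%, by 11.05 points. The next was the context AACGTG, with 13611 CpGs and a gain of 10.6 points. The third was the context CTCGAG, with 4930 CpGs and a gain of 10.4 points. All 3 have no G before the C on either strand. The lowest gain was found in the context CGCGGA, whose 4754 CpGs went from 82.4% to 82.7%, a difference of 0.289 points. The next lowest was the context AGCGGA, with 8048 CpGs and 0.563 points. The third lowest was the context TGCGCA, with 5090 CpGs and 0.583 points. The second base changed the gain within a class as well, from 2.15 to 11.05 points over the 10 contexts of ACGT and from 0.583 to 3.13 points over the 10 contexts of GCGC. Context ranges of the upper and lower classes therefore overlap.

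The flank preference known for DNMT3A orders the classes by the number of strands with a pyrimidine after the CG. Over all members the gain was 4.08 points at R-CG-Y sites (339796 CpGs; 73.0% to 77.1%), 4.47 at sites with the pyrimidine on 1 strand (620624 CpGs; 70.9% to 75.4%) and 6.31 at Y-CG-R sites (313342 CpGs; 64.9% to 71.2%). The gain of R-CG-Y minus that of Y-CG-R sites was thus -2.23 points, with a 95% counting interval of ± 0.113 points from summed reads, and the order ran opposite to that of the preference. The difference was below 0 on all 22 chromosomes, from -2.86 points on chromosome 3 to -1.70 on chromosome 10. Over the alternatives of processing it lay between -4.43 points for summed reads and -1.27 points with at least 10 reads. Against neighbours of the same tile it was -2.20 points, again below 0 on all 22 chromosomes, and it became -1.09 points with at least 10 reads and -1.31 points with 10 to 50 reads. Within R-CG-Y, however, ACGT and GCGC were the highest and the lowest of all classes, so that these groups do not describe single classes well. No Y-CG-R class has a G before the C, while ACGC and GCGC do. A G before the C on 1 strand is a C after the CG on the other, so this contrast includes that of the G. The pyrimidines themselves differed, with a gain of 2.43 points for C after the CG and 5.97 points for T. For the purines it was 4.99 points with G after the CG and 5.98 points with A. ACGT, the R-CG-Y class without a G before the C, gained 7.62 points, against 5.87 to 7.53 points in the Y-CG-R classes. It stood above CCGG on 22 of 22 chromosomes, above CCGA on 21 and above TCGA on 12.

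Relative to the unmethylated part in Neg, the gain was 15.1% at R-CG-Y and 17.98% at Y-CG-R sites, a difference of -2.87 points. The difference was below 0 on all 22 chromosomes, from -5.40 to -0.846 points. It was not below 0 at higher depth. Among the 44380 CpGs that reached 10 reads in each library the difference was 2.63 points, and with 10 to 50 reads (39612 CpGs) it was 0.347 points. The counting interval of ± 0.368 points belongs to the value over all members. None was computed for these smaller sets, so whether their values differ from 0 was not tested. R-CG-Y sites started 8.08 points higher in Neg over all members and 16.7 points higher with at least 10 reads.

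Since a site can show new methylation only where it is unmethylated, members were next divided by the Neg level of their neighbours, taken from the other covered CpGs within 500 bp (at least 2) and not from the site itself. The order changed where neighbours were low. With neighbours under 20% in Neg (88416 CpGs), R-CG-Y sites rose from 8.05% to 11.5% (3.44 points), sites with the pyrimidine on 1 strand from 7.95% to 11.1% (3.15 points) and Y-CG-R sites from 5.73% to 8.22% (2.49 points). Here R-CG-Y gained 0.946 points more than Y-CG-R, with a counting interval of ± 0.249 points from summed reads. The interval leaves out the spread over CpGs, and for summed reads the difference itself was 1.96 points. The difference was above 0 on 17 of 22 chromosomes and below 0 on 5. The lowest value was -0.891 points, on chromosome 15, and the highest was 2.81 points, on chromosome 2. It fell to 0.233 points with a minimum of 1 read and rose to 2.98 points with at least 10 reads, so its size is not well set by these data. The value with 1 read is smaller than the counting interval, but that interval belongs to members with at least 5 reads. No interval was computed for 1 read, so whether the direction holds at this minimum was not tested. Against neighbours of the same tile the gain was -1.21 points at these R-CG-Y sites and -1.36 points at these Y-CG-R sites. The neighbours taken off here are largely those chosen for their low Neg level. By this measure all 10 classes stood below 0 in each of the bands under 80% and above 0 over 80%, so that it was not used to compare flanks within these bands.

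By class, low-neighbour sites gained most in ACGT (3.69 points, 3188 CpGs), followed by ACGA with 3.61 and ACGC with 3.35 points. CCGG gained 2.79 points, CCGA 2.61 and TCGA 2.07 points (3821 CpGs), so that the 3 Y-CG-R classes were the 3 lowest. TCGA, the second highest class over all members, was the lowest here. Of all TCGA members, 1424 had more than 50 reads in a library, with mean levels of 13.04% in Neg and 13.3% in dCas9+3A+HOXA5. How many of these are low-neighbour sites was not examined, and class gains without them are not given here. Without CpGs over 50 reads the low-neighbour difference of R-CG-Y minus Y-CG-R was 0.774 points. GCGC, the lowest over all members, gained 3.09 points. Relative to the unmethylated part in Neg, the 4 classes with a G before the C gained 3.36% to 3.66% here, above ACGG with 3.06% and the 3 Y-CG-R classes with 2.18% to 2.97%, and below ACGT and ACGA.

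Where neighbours were between 20% and 80% in Neg (287906 CpGs), Y-CG-R sites gained 7.59 points and R-CG-Y sites 4.79 points. With neighbours over 80% (461095 CpGs), Y-CG-R sites rose from 83.3% to 86.9% and R-CG-Y sites from 88.7% to 90.2%, gains of 3.59 and 1.49 points. GCGC sites gained 0.177 points there, from 93.3% to 93.4%, and ACGT sites 4.55 points, from 79.4% to 83.9%. The order seen over all members was thus present in partly and in highly methylated surroundings. In surroundings of low methylation the difference between R-CG-Y and Y-CG-R sites had the opposite sign. It was smallest with 1 or more reads, for which no counting interval was computed. The remaining 436345 members had too few covered neighbours to be placed.

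**Figure D4:**
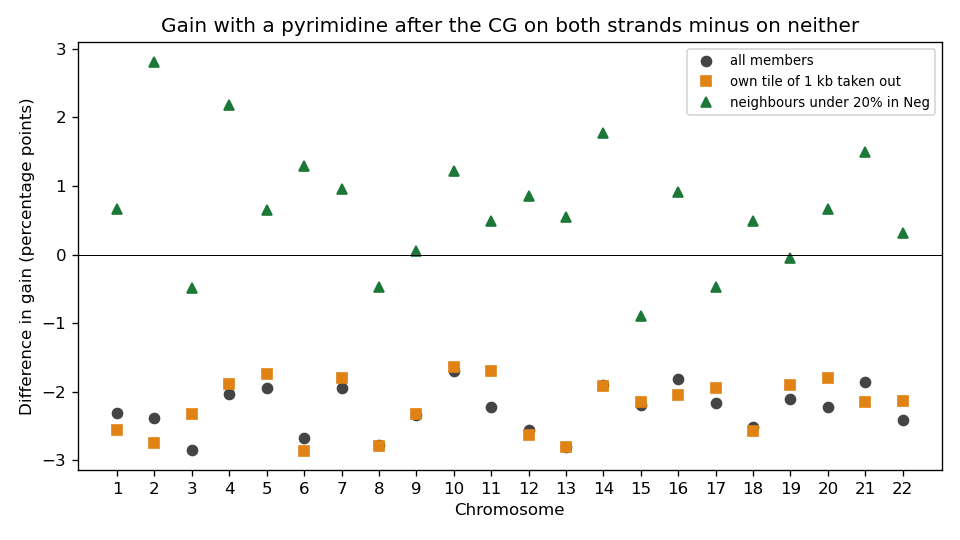
Gain at sites with a pyrimidine after the CG on both strands minus gain at sites with it on neither strand, in percentage points (y axis), for each of chromosomes 1 to 22 (x axis); circles are all members, squares have the own 1-kb tile taken out, and triangles are members whose neighbours are under 20% in Neg. All circles and squares lie below 0, and 17 of the 22 triangles lie above it.

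At the target, where DNMT3A was directed by the guide, few members were covered. Within 50 kb of the protospacer, 274 members rose from 28.5% to 59.2%. The 59 R-CG-Y sites rose by 24.0 points (135 of 389 methylated reads in Neg, 222 of 386 in dCas9+3A+HOXA5) and the 73 Y-CG-R sites by 36.9 points (135 of 458 and 331 of 516). The difference was -12.9 points, with an SD over CpGs of 40.5 and 42.9 points. Its counting interval of ± 9.01 points comes from summed reads and leaves out this spread over CpGs. The interval therefore does not show whether the difference exceeds what that spread would give. With 5 to 7 reads in both libraries the difference was -21.2 points. By class within 50 kb, the gain was lowest in ACGT with 18.6 points (10 sites) and highest in TCGA with 71.1 points (3 sites). CCGG gained 26.5 points (34 sites) and GCGA 37.3 points (26 sites), so the upper and lower sets were not separated there. Within 5 kb, 7 R-CG-Y sites rose by 42.6 points and 5 Y-CG-R sites by 57.8 points.

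With at least 1 read, which is outside the rule for members, the difference within 50 kb kept its direction, with gains of 25.8 points at 611 R-CG-Y sites and 33.01 points at 706 Y-CG-R sites (-7.21 points). Within 5 kb it turned with that minimum. There 86 R-CG-Y sites rose from 4.51% to 67.0% (16 of 320 and 166 of 321 methylated reads) and 94 Y-CG-R sites from 1.46% to 52.2% (6 of 306 and 136 of 286). The mean over CpGs then rose by 11.7 points more at R-CG-Y sites. The methylated shares of reads in dCas9+3A+HOXA5 had overlapping 95% Wilson intervals of 46.3 to 57.1% and 41.8 to 53.3%. The direction of a difference between flanks within 5 kb of the target was therefore not settled at this depth.

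Coverage was not even over the classes. The share of reference CpGs that became members was between 3.09% for TCGA and 5.60% for CCGC. Mean depth in Neg was 20.02 reads for TCGA and between 7.66 and 10.1 for the other classes, although the median was 7 in each class. In TCGA, 1424 of 43968 CpGs had more than 50 reads in a library and held 63.1% of the Neg reads of the class, with a mean level that went from 13.04% to 13.3%. Without CpGs over 50 reads the span between classes was 5.92 points and the difference between R-CG-Y and Y-CG-R sites -2.25 points. Intervals and shares cover counting error only, because reads of a fragment and copies of a molecule are not independent.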

How the data were processed

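WGBS libraries were prepared with a TruSeq DNA methylation kit. The authors trimmed the reads, aligned them to hg19 with BSMAP 2.90 (submitters' processing notes) and computed methylation per CpG with its ratio module. How duplicate and multiply mapping reads were treated is not given in the sources. Per the file headers, the deposited counts are reads with C and with C or T, and G and G or A on the opposite strand. An estimated count in the deposited files corrects C or T for variants, and the deposited fraction is the C count over this estimated count. Here the fraction was averaged over CpGs as a percentage, after a minimum of 5 reads per library. The 1273762 members held 11318550 Neg reads and 9188334 reads of dCas9+3A+HOXA5. Flanks, density and the guide position were read from GRCh37, which has hg19 coordinates, and genes from GENCODE 44 lifted to GRCh37.

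Class means were standardised to the share of members in density bands of 0 to 9, 10 to 19, 20 to 39, 40 to 79 and 80 or more other CpGs within 500 bp. Values at HOXA5, gains against the own tile and shares of rises and falls were not standardised for density. Intervals on shares of reads are 95% Wilson intervals, and those on differences are normal binomial intervals from summed reads. The differences themselves are means over CpGs, so that these intervals leave out the spread over CpGs and over chromosomes. Named were all 10 classes, the 3 highest and 3 lowest 2-base contexts with at least 1000 members, and the member of each class nearest to the guide. With 1 library per group no test was run. Python 3.11.15, numpy 2.4.6, pandas 2.3.3 and scipy 1.17.1 were used, and the functions were tested on simulated data. The members, classes and alternatives were chosen with earlier results of these data known.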

Additional observations from a re-analysis of the deposited data

How the results depend on the processing

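The 8 values that compare classes were recomputed in 73 combinations of value and alternative. Of these, 33 moved by less than the counting interval of the value as reported, 37 moved by more with the same direction and 3 turned sign. The limits on reads above 50 and the 5-kb window with 1 read were chosen after seeing the data. The relative gain of R-CG-Y minus Y-CG-R (-2.87) turned to 2.63 at 10 or more reads and to 0.347 at 10 to 50 reads. The counting interval of ± 0.368 belongs to all members. None was computed for these smaller sets, so whether their values differ from 0 was not tested. The difference at HOXA5 (-12.9 points) turned to 11.7 points within 5 kb at 1 or more reads. The cause was not tested.

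The span between the 10 classes (5.87 points) became 6.78 with 1 or more reads, 6.19 with 5 to 7 reads, 9.43 for summed reads, 7.45 for summed reads without CpGs over 50 reads, 7.61 without density bands and 4.27 with bands of density and neighbour level together. The gain of R-CG-Y minus Y-CG-R (-2.23 points) became -1.27 with 10 or more reads, -1.71 with 10 to 50 reads, -4.43 for summed reads, -2.60 for summed reads without CpGs over 50 reads, -2.11 without density bands and -2.02 with both kinds of bands. Within tiles (-2.20) it became -1.09 with 10 or more reads, -1.31 with 10 to 50 reads and -1.77 for summed reads. The span over the base before the C (3.55) became 3.99 with 1 or more reads, 3.71 with 5 to 7 reads, 6.98 and 3.91 for summed reads with and without CpGs over 50 reads, 4.37 without density bands and 2.56 with both kinds of bands. All values with both kinds of bands leave out the 436345 members that had too few covered neighbours. Members and bands thus changed together, and their shares in the shift were not separated.

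With low neighbours the difference (0.946) became 2.98 with 10 or more reads, 2.30 with 10 to 50 reads, 0.233 with 1 or more reads, 0.556 with 5 to 7 reads, 1.96 for summed reads and 0.641 without CpGs with variant evidence. The relative gain became -3.33 with 5 to 7 reads, -3.62 for summed reads and -4.05 with both kinds of bands. The Neg difference (8.08) became 16.7, 6.58 and 11.8 with 10 or more, 1 or more and 10 to 50 reads, 13.3 and 8.43 for summed reads with and without CpGs over 50 reads, 7.84 without density bands and 7.86 without CpGs over 50 reads. At HOXA5 the difference was -21.2 with 5 to 7 reads, and with 10 or more reads no value could be had. No paired analysis was possible because there is 1 library for Neg and 1 for dCas9+3A+HOXA5. Leaving out a library was likewise not possible.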
